A study of Arabidopsis thaliana with 12 samples.

Results

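Small RNA from inflorescences of the ntp4-1 mutant of Arabidopsis thaliana was set directly against that of the heso1-1 mutant, 3 biological replicates each, which are 6 of the 12 libraries in the study. The values were RPM, the reads of a bin scaled to the depth of its library, in bins of 100 bp along the genome, and all bins with a mean of at least 1 RPM over the 6 libraries were taken, which kept 36445 of 152484 bins. Of the 369 bins whose annotation names a mature miRNA strand, 260 passed that minimum and are described separately. Both mutants carry 1 labelled lesion in the Col-0 ecotype and were grown without treatment in 16 h of white light and 8 h of dark at 22 °C, as were the wild-type Col-0 plants whose values are given beside theirs. Total RNA was taken with TRIzol, treated with DNase I and prepared for sequencing by the NEBNext small RNA method. Neither the nature of the lesions nor the number of plants pooled in a replicate is stated in the labels.

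A plant miRNA is cut by a Dicer-like enzyme from a hairpin as a duplex of a 5p and a 3p strand, and as a rule only 1 of them is loaded into an ARGONAUTE protein and kept. The ends of plant miRNAs are methylated, and strands that lack this mark can be tailed with uridine and degraded. HESO1 is a nucleotidyl transferase that adds such tails, and the study's title places NTP4 at the modification of the 3p and 5p strands. The comparison shows where the small RNA profiles of both kinds of plant differ.

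The mature strands on which the results turn were read from the TAIR10.1 genome at the positions of the RefSeq annotation, where all 422 strand listings of the deposited table fell in the bin that names them. Each is written 5′ to 3′ with the seed (bases 2 to 8) in capitals. The first group holds the 3p strands of miR166a and miR165a, between them the 1 called miRNA bin and the 1 called strand ratio, with their 5p partners, and miR166a-3p and miR165a-3p share their seed and differ at 1 of 21 bases (U17C, counted from the 5′ end, miR166a-3p first).
miR166a-3p: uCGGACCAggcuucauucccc
miR165a-3p: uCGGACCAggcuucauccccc
miR166a-5p: gGACUGUUgucuggcucgagg
miR165a-5p: gGAAUGUUgucuggaucgagg
The pairs of miR171b and miR390a follow because their strand ratios did not overlap between the mutants, and miR398b-5p, miR159a and miR319a because their single values are described.
miR171b-3p: uUGAGCCGugccaauaucacg
miR171b-5p: aGAUAUUAgugcgguucaauc
miR390a-5p: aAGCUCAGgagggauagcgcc
miR390a-3p: cGCUAUCCauccugaguuuca
miR398b-5p: aGGGUUGAuaugagaacacac
miR159a: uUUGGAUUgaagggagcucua
miR319a: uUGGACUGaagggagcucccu
The bins of miR166a-3p and of the miR165a strands are shown on the strand of the gene, with the mature strand in capitals, because they show what a value of 1 bin covers. The 3p and 5p strands of MIR165a lie in adjacent bins and could be measured apart.
miR166a-3p, chr2:19176201-19176300, plus strand: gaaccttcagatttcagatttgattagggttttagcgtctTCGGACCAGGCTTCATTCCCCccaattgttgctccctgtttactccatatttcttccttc
miR165a-3p, chr1:78901-79000, minus strand: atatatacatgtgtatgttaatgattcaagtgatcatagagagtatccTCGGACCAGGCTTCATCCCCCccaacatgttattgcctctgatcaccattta
miR165a-5p, chr1:79001-79100, minus strand: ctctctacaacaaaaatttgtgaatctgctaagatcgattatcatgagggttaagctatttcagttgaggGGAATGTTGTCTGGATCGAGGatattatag

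Depth ran from 2761330 reads (heso1-1 replicate 3) to 11191516 reads, as implied by the worth of 1 read in each column. The listed bins held 47.3% to 59.4% of these reads in heso1-1 and 28.7%, 48.5% and 54.3% in ntp4-1. The library of ntp4-1 replicate 1 stood apart: its miRNA bins held 0.972% of the reads, against 3.16% and 3.28% in the other ntp4-1 libraries. Replicate 1 was the lowest in the other genotypes as well. Its miRNA bins held 2.94% in heso1-1, against 4.37% and 4.77%, and 2.69% in Col-0, against 4.27% and 3.86%. Over all bins tested the median log2 difference, ntp4-1 minus heso1-1, was -0.52 on the deposited scale and -0.04 after TMM scaling (trimmed mean of M-values), so changes of groups of bins are read against that shift. Small RNA does not measure the mRNA of a mutated gene: within HESO1 (AT2G39740) the table held no bin, and the labels were not checked in that way.

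The strongest miRNA difference was in the family of miR165 and miR166, which limits the class III homeodomain-leucine zipper genes that set leaf and floral polarity. The 3p strand of miR166a, the guide strand, was counted at 1524, 2194 and 6688 RPM in the heso1-1 libraries and at 195, 293 and 226 RPM in ntp4-1. Col-0 had 1296, 2007 and 2226 RPM. Every ntp4-1 library thus lay below every heso1-1 and Col-0 library, and heso1-1 replicate 3, the shallowest library, was far above the rest. The fitted log2 difference was -3.58 (SE 0.54, limma on log2(RPM + 0.5), adjusted p = 0.0271 over all bins), and miR166a-3p was the 1 miRNA bin of 260 that passed at 0.05. Across all bins 0.0466% passed in either direction and 0.0247% as lower in ntp4-1. With the replicate number as a block, a pairing that no label gives, the adjusted p = 1.46e-05. Over the alternatives the adjusted p ran from 1.77e-12 to 0.567. Of 19 alternatives only 8 kept the call. The losses included TMM scaling (-2.90, adjusted p = 0.406, and 0.133 with the block too). They also included the fits without heso1-1 replicate 2 (0.0641), heso1-1 replicate 3 (-2.96, 0.198) or ntp4-1 replicate 3 (0.126). Median centring, a pseudocount of 0.1, a minimum mean of 5 RPM and edgeR with or without TMM scaling lost it too.

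The other strands with the same seed lay the same way without passing by themselves. The 2 loci of miR165 give the same mature sequence. miR165a-3p (MIR165a, AT1G01183) was at 89.7, 149 and 147 RPM in heso1-1 and at 7.11, 14.2 and 11.3 RPM in ntp4-1, with 64.2, 100 and 111 RPM in Col-0. Its log2 difference was -3.52 (SE 0.63, adjusted p = 0.0616, and 0.000724 with the replicate block). Here no single heso1-1 library carried the difference, and ntp4-1 stood below both other genotypes in every library. The bin of miR165b was at 46.0, 75.6 and 457 RPM in heso1-1 and at 7.37, 4.25 and 5.48 RPM in ntp4-1 (-4.27, adjusted p = 0.0937, and 0.000275 with the block). After TMM scaling its limma adjusted p was 0.568. Col-0 stood between 48.2 and 81.2 RPM at miR165b, above all ntp4-1 libraries. In this bin, as in that of miR166a-3p, heso1-1 replicate 3 was several times above the other libraries.

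Among the remaining miR166 loci the size of the difference varied. miR166c was at 7.02, 16.2 and 150 RPM in heso1-1 and at 0, 3.24 and 5.67 RPM in ntp4-1 (-3.56, adjusted p = 0.753, 0.000725 with the block and 0.983 after TMM scaling). miR166e-3p was at 104, 112 and 535 RPM against 23.2, 49.8 and 50.5 RPM (-2.23, adjusted p = 0.849). At both loci the groups did not overlap, although heso1-1 replicate 3 supplied most of the mean. miR166d and miR166b-3p, by contrast, overlapped between the genotypes, with means of 16.5 ± 8.04 and 10.4 ± 4.70 RPM (SD, n = 3) and of 7.16 ± 4.30 and 2.89 ± 4.25 RPM, heso1-1 first. The 7 miR166 loci share 1 mature sequence, so their reads cannot be told apart by sequence, and how reads that match several loci were placed is not given in the sources used here.

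Summed over the 9 bins that hold strands of the 3p arm, miR165 and miR166 stood at 1827, 2615 and 8357 RPM in heso1-1 and at 260, 406 and 336 RPM in ntp4-1. Col-0 had 1591, 2480 and 2685 RPM. The ratio of the means was 12.8, and the groups did not overlap (two-sided exact permutation p = 0.1, the smallest that 3 against 3 allows). The partner strands of the 5p arm, in 3 bins, summed to 118, 102 and 94.9 RPM in heso1-1 and to 46.9, 55.3 and 110 RPM in ntp4-1. These overlapped, with a ratio of 1.48 (exact permutation p = 0.3). Without heso1-1 replicate 3 the ratio for the 3p arm was 6.65. Of the 9 bins of the 3p arm 7 had no overlap between the mutants, with ntp4-1 lower in each (11.9% of all bins were wholly lower in ntp4-1), and of the 3 bins of the 5p arm 1 did (miR166a-5p, at 79.0 ± 1.57 and 37.1 ± 19.7 RPM).

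**Figure D1:**
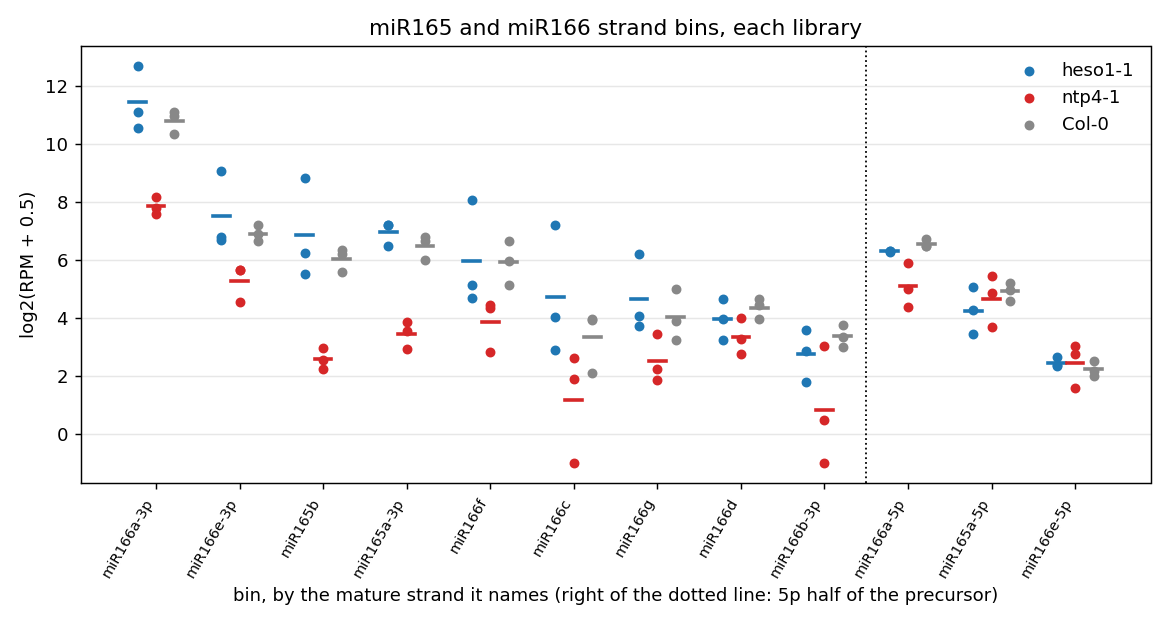
Each point is 1 library and each bar the mean of 3, on a log2(RPM + 0.5) axis, for the 12 tested bins that name a miR165 or miR166 strand. Left of the dotted line the ntp4-1 libraries lie below the heso1-1 libraries in 7 of 9 bins, for example at miR166a-3p (195 to 293 RPM) and miR165a-3p (7.11 to 14.2 RPM), and overlap at miR166d and miR166b-3p; on the right miR165a-5p and miR166e-5p overlap.

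Because scaling moves both strands of a miRNA together, the ratio of the 3p to the 5p strand was compared as well. Of 95 miRNA names with a strand listed, 87 had both, 46 had them in separate bins and 45 of those were abundant enough to test. miR165a changed: its log2 ratio of 3p to 5p (0.5 RPM added to each) was 1.43, 2.94 and 3.75 in heso1-1 and -0.76, -0.99 and -1.90 in ntp4-1, with 1.41, 1.69 and 1.58 in Col-0. The 3p strand thus outnumbered the 5p strand in every heso1-1 and Col-0 library and was outnumbered in every ntp4-1 library. The difference was -3.92 (SE 0.75, limma, adjusted p = 0.0288 over 45 ratios), the 1 called ratio, or 2.22%. Over the alternatives the adjusted p ran from 5.98e-05 to 0.216. The call was lost with a pseudocount of 0.1 (adjusted p = 0.0628) and without heso1-1 replicate 2 (0.216), heso1-1 replicate 3 (0.131), ntp4-1 replicate 2 (0.067) or ntp4-1 replicate 3 (0.154). The 5p strand alone did not pass: miR165a-5p was at 20.8 ± 11.4 RPM in heso1-1 and at 28.2 ± 15.7 RPM in ntp4-1 (log2 difference 0.40, adjusted p = 0.872).

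With the replicate block 5 ratios were called, or 11.1%, all lower in ntp4-1: miR165a, miR171b, miR166a, miR166b and miR166e. For miR171b, which acts on GRAS-family regulators of the shoot meristem, the log2 ratio was 2.32, 3.48 and 4.78 in heso1-1 and -0.23, 0.61 and 1.502 in ntp4-1 (difference -2.90, SE 0.80, adjusted p = 0.137, and 0.00529 with the block). For miR166a it was 4.24, 4.82 and 6.38 against 2.59, 3.81 and 1.93 (-2.37, adjusted p = 0.211, and 0.0282 with the block). Neither pair of groups overlapped, and the 3p strand of miR166a remained the more abundant in ntp4-1. For miR166e the difference was -2.24 (adjusted p = 0.211, and 0.035 with the block), and for miR159b, whose 3p strand acts on GAMYB-like genes, it was -1.39 (adjusted p = 0.36).

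In all, 7 of 45 ratios (15.6%) had every ntp4-1 library below every heso1-1 library and 2 (4.44%) the reverse. The 2 were miR390a and miR390b, the trigger of trans-acting siRNA from TAS3, whose guide is the 5p strand. The miR390a log2 ratio was -0.67, -1.08 and -0.18 in heso1-1 and 0.39, 0.28 and 0.24 in ntp4-1 (difference 0.94, SE 0.56, adjusted p = 0.452). That of miR390b had a difference of 1.27 (adjusted p = 0.36). The guide strand had the larger difference of the pair: miR390a-5p was at 47.6, 170 and 142 RPM in heso1-1 and at 2.50, 53.3 and 43.9 RPM in ntp4-1 (log2 difference -2.45, adjusted p = 0.849, and 0.0445 with the block).

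Split by the strand that is the more abundant in Col-0, the 20 pairs led by the 3p strand had a median difference of -1.12 and 6 of them had all ntp4-1 ratios lower. The 25 pairs led by the 5p strand had a median of -0.08, with 1 lower and 2 higher throughout. Taken as strands, the more abundant of each pair had a median log2 difference of -0.44 and the less abundant one of -0.25, beside -0.52 over all bins. The difference between these groups of pairs was not tested. Pairs of a family can share a mature sequence and are not independent.

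**Figure D2:**
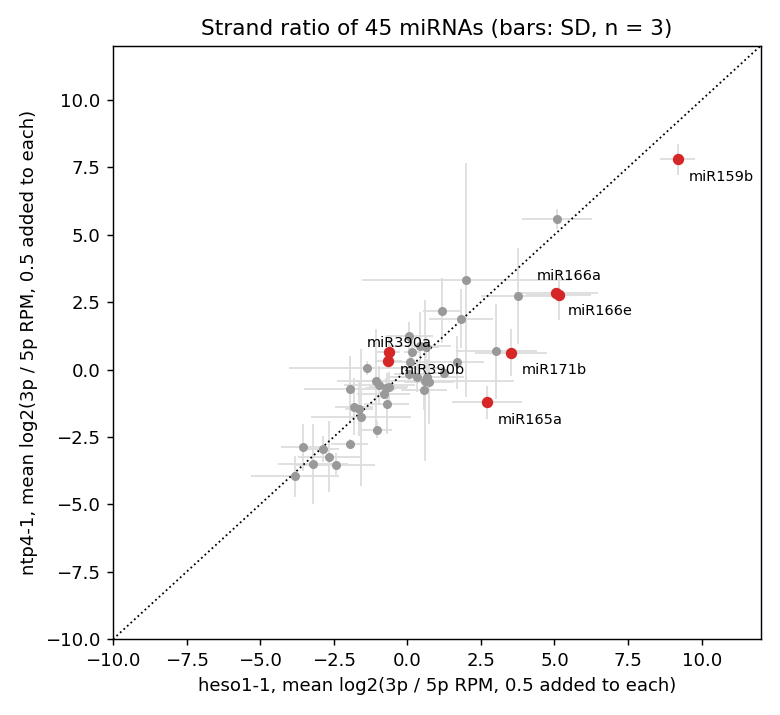
Each point is 1 of 45 miRNAs, with the mean log2 ratio of 3p to 5p RPM in heso1-1 on the x axis and in ntp4-1 on the y axis (bars are SD, n = 3), and the dotted line marks equal ratios. The named points have no overlap between the mutants; miR165a, at 2.71 in heso1-1 and -1.21 in ntp4-1, lies farthest below the line among them, and miR390a and miR390b lie above it.

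Over all bins that name miRNA strands, none rose and 1 fell by limma, with 2 and 34 at an unadjusted p under 0.05. Blocking on the replicate number gave 0 higher and 17 lower, edgeR on the recovered reads called 0 and DESeq2 called 5, all lower. After TMM scaling limma called 0 miRNA bins. The blocked calls were 6.54% of the miRNA bins, beside 0.834% of all bins, and those of DESeq2 1.92%, beside 0.354%. Groups did not overlap in 34 bins with ntp4-1 lower and in 2 with it higher, against backgrounds of 11.9% and 0.659% of all bins. The 34 are 13.1% of the miRNA bins, near the background, and the median of -0.48 was near that of all bins. Bins of strands named 3p (50 tested) had a median of -0.44 with 8 wholly below, bins named 5p (47) had -0.28 with 3 wholly below, and bins of strands without a suffix (132) had -0.56 with 21 wholly below.

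The 221 bins that name 1 strand were split by position, on the 5p or 3p side of the midpoint of the annotated miRNA gene. This side need not match the arm of the hairpin. Of 123 bins of the 3p side 26, and of 98 of the 5p side 5, lay wholly below heso1-1 (21.1% and 5.1%, beside 11.9% of all bins). Their medians were -0.71 and -0.33. The difference between the sides was not tested. Bins of miR165 and miR166 are among those of the 3p side wholly below. Loci of a family can share a mature sequence, so these bins are not independent. By first base the medians were -0.53 for U (129 bins), -0.38 for A (51), -0.45 for C (21) and -0.62 for G (20). Summed RPM of bins named 3p were 9201 ± 5100 in heso1-1 and 3692 ± 1868 in ntp4-1 without overlap (exact permutation p = 0.1, the smallest possible). Those of bins named 5p were 1594 ± 643 and 1596 ± 1164 (exact permutation p = 1). Most of the difference in the 3p sums lay in miR166a-3p (3469 ± 2808 and 238 ± 50.0 RPM) and miR159b-3p (3614 ± 2090 and 1791 ± 1161 RPM). The median log2 difference of the 50 bins named 3p was -0.44, beside -0.52 over all bins.

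Developmental families (74 bins) had a median of -0.88, with 12 wholly below (16.2%, near the 11.9% of all bins) and 1 called. miR159a, the most abundant of them, was at 2635, 5949 and 7954 RPM in heso1-1 and at 510, 2758 and 2875 RPM in ntp4-1 (log2 difference -1.65, adjusted p = 0.849, and 0.00546 with the block). Its groups overlapped by the narrow margin between heso1-1 replicate 1 and ntp4-1 replicates 2 and 3. miR319a, which acts on TCP genes of leaf and petal growth, was at 1206, 2191 and 2550 RPM against 355, 468 and 653 RPM (-1.98, adjusted p = 0.266, and 0.00536 with the block). The bin of miR319c was at 1758, 1024 and 1072 RPM against 869, 210 and 327 RPM (-1.67, adjusted p = 0.849, and 0.0487 with the block), and neither of these bins overlapped between the mutants, while miR319b did.

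The 6 bins of miR172, which limits AP2-type floral genes, had a median of -1.76, but the values in heso1-1 were spread too widely to read. The bin of miR172a was at 10.03, 89.4 and 1725 RPM in heso1-1 and at 0, 123 and 73.5 RPM in ntp4-1 (adjusted p = 0.849). The miR167 bins, which act on auxin response factors of the flower, lay the other way, with a median of 0.33 over 6 bins. miR167a-5p was at 7.02, 98.8 and 154 RPM against 3.29, 451 and 267 RPM (adjusted p = 0.893). In both families the ranges overlapped.

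The abundant 5p strands of miR396, which act on growth-regulating factors, did not separate the mutants. miR396b-5p was at 307 ± 216 RPM in heso1-1 and at 20.02, 540 and 537 RPM in ntp4-1 (-0.54, adjusted p = 0.876). miR396a-5p was at 45.8, 239 and 298 RPM against 17.3, 351 and 324 RPM (-0.24, adjusted p = 0.945), and miR156d-5p, of the family that times phase change, at 148, 167.8 and 47.1 RPM against 50.04, 126 and 134 RPM (-0.16, adjusted p = 0.945). In all of these ntp4-1 replicate 1 was low and its other two libraries lay within or above the heso1-1 range. The most abundant miRNA bin, which holds both strands of miR158a, was at 9791 ± 4159 and 9618 ± 6019 RPM (-0.26, adjusted p = 0.882).

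Nutrient and stress families (17 bins) had a median of -0.88, with 6 wholly below (35.3%, beside 11.9% of all bins). miR398b-5p, from the copper-responsive locus whose 3p strand acts on Cu/Zn superoxide dismutases, was at 6.35, 19.0 and 45.6 RPM in heso1-1 and at 3.42, 0 and 0 RPM in ntp4-1 (-4.21, adjusted p = 0.155, and 0.000844 with the block). After TMM scaling the limma adjusted p of this strand was 0.967. miR398b-3p was at 4.38 ± 1.39 and 0.132 ± 0.228 RPM (-2.96, adjusted p = 0.155). For this locus the mutants did not overlap at either strand. Col-0 was low as well, at 4.85 ± 4.68 RPM for the 5p strand and 0.771 ± 0.673 RPM for the 3p strand. miR827, which acts in phosphate starvation, was at 28.2, 18.9 and 79.3 RPM against 0.395, 11.1 and 5.48 RPM (-3.16, adjusted p = 0.633, and 0.011 with the block), while Col-0 had 3.75 ± 2.86 RPM, so that heso1-1 rather than ntp4-1 stood off from the wild type. miR399b, which represses the phosphate regulator PHO2, was at 5.19 ± 1.48 and 0.818 ± 0.462 RPM (-2.13, adjusted p = 0.591, and 0.0197 with the block).

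The miRNAs that act on the silencing machinery itself overlapped in all 7 bins, with a median of -0.29. miR403-3p, directed at AGO2, was at 359, 832 and 255 RPM in heso1-1 and at 108, 1090 and 988 RPM in ntp4-1 (0.21, adjusted p = 0.936). miR168a-5p, directed at AGO1, was at 75.8 ± 24.3 and 71.6 ± 51.0 RPM, and the bin of both strands of miR162b, directed at DCL1, at 905 ± 252 and 1208 ± 304 RPM (0.43, adjusted p = 0.849). Families with a trigger of phased siRNA (8 bins, 4 of them of miR390, with partner strands counted) had a median of -1.37. The bin of miR161.1 and miR161.2, directed at pentatricopeptide repeat (PPR) genes, was at 861, 935 and 846 RPM against 92.1, 325 and 339 RPM, a difference of -2.02 without overlap (adjusted p = 0.565, and 0.0281 with the block). miR173-5p, the trigger of TAS1 and TAS2, was at 14.3, 158.7 and 301 RPM against 1.45, 176 and 156.1 RPM (-1.24, adjusted p = 0.849).

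Of the pollen miRNAs, miR845a was at 1813, 635 and 73.9 RPM in heso1-1 and at 611, 137 and 400 RPM in ntp4-1. miR845b was at 314 ± 285 and 207 ± 49.0 RPM, and miR2939 at 4.16 ± 2.87 and 0.717 ± 0.517 RPM, the last without overlap. heso1-1 replicate 3 was the lowest heso1-1 library for miR845a and miR845b and the highest for miR166a-3p. In bulk tissue fewer cells of a type and less RNA per cell cannot be told apart, and the part of tissue makeup in the differences was not tested.

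Products of the TAS genes did not pass: of 33 tested bins in 7 of 8 genes limma called 0, with 0 higher and 2 lower at an unadjusted p under 0.05, and edgeR and DESeq2 called 0. Summed over its bins TAS1C, the most abundant, was at 2506, 2491 and 1772 RPM in heso1-1 and at 894, 1320 and 1648 RPM in ntp4-1, below Col-0 (4079 ± 281 RPM) in both. For TAS2 the sums were 1986 ± 780 in heso1-1 against 1253 ± 674 RPM in ntp4-1, for TAS1A 713 ± 210 against 329 ± 187 RPM, and for TAS1B 219 ± 123 against 153 ± 58.0 RPM. TAS3 was at 515 ± 250 and 467 ± 347 RPM, TAS3b at 133 ± 46.1 and 88.9 ± 54.3 RPM and TASIR-ARF at 68.4 ± 9.23 and 58.1 ± 23.1 RPM. The median of the 33 bins was -0.60, near that of all bins.

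Small RNA over the genes of the silencing machinery was sparse: 3 of 17 genes had a tested bin, with 0 called. AGO2, whose bin holds 7.69, 26.6 and 23.5 RPM in heso1-1 and 1.32, 57.5 and 58.1 RPM in ntp4-1, overlapped, as did AGO1 (6.52 ± 2.87 and 3.88 ± 2.28 RPM) and DCL4 (2.86 ± 1.18 and 2.86 ± 2.29 RPM). Of 15 miRNA target genes 2 had tested bins, the auxin receptors AFB2 and AFB3, with a median of -1.31 over 6 bins and 0 called (1 with the replicate block). Summed over listed bins AFB2 was at 7.47, 13.2 and 31.9 RPM in heso1-1 and at 1.71, 7.50 and 4.75 RPM in ntp4-1, nearly without overlap. AFB3 was at 23.8 ± 18.7 and 9.44 ± 6.45 RPM.

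Across the whole genome 17 of 36445 bins differed, 8 higher in ntp4-1 (0.022%) and 9 lower. With the replicate block 304 bins were called (0.834%), 51 higher and 253 lower, and after TMM scaling 12 higher and 2 lower. Scaling each library to the median bin gave 16 and 3. Leaving out heso1-1 replicates 1, 2 or 3 gave 17 and 68, 0 and 1, and 0 and 0, and leaving out ntp4-1 replicates 1, 2 or 3 gave 295 calls of which 123 were higher, then 8 and 20, and 0 and 0. In all 17 bins the groups did not overlap (of all bins, 0.659% had ntp4-1 wholly above and 11.9% wholly below). The 17 were called on these same values, so their lack of overlap is no further support. All 17 were also called with the block and without ntp4-1 replicate 1, 8 of them after TMM scaling and 0 under every alternative, and the sign was the same in every alternative that gave a value. The 9 that lost the call after TMM scaling were those of miR166a-3p and of the promoters of DMS11 (adjusted p = 0.115), MPK4 (0.115), AT5G39850 (0.0749), AT4G10810 (0.107), AT5G44600 (0.177), AT5G20090 (0.0824) and AT4G10620 (0.0749), and the bin at chr5:17498401-17498500 (0.0525). The largest adjusted p of each bin over the alternatives lay between 0.188 and 0.715. By edgeR on the recovered reads 0 bins passed, with 1224 at an unadjusted p under 0.05, against 1522 by limma.

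Most of these bins held reads in 1 mutant and next to none in the other. The largest rise was in the transposable element gene AT3G22955 (chr3:8138701-8138800), at 0, 0.0894 and 0.362 RPM in heso1-1 and at 8.43, 45.2 and 70.02 RPM in ntp4-1 (log2 difference 5.60, SE 0.77, adjusted p = 0.0198, and 0.00799 after TMM scaling). Col-0 had 24.1, 80.3 and 64.7 RPM, so here ntp4-1 was at the wild-type level and heso1-1 was not. The adjacent bin was at 0.158 ± 0.185 and 4.65 ± 2.89 RPM (adjusted p = 0.319, 0.00359 with the block and 0.0749 after TMM scaling).

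Of the 8 rises Col-0 lay with ntp4-1 in 4, with heso1-1 in 3 and on neither side in 1. The bin in the promoter of MPK4 (AT4G01370, a MAP kinase of plant immunity; chr4:566801-566900) was at 0.111, 0.0894 and 0 RPM in heso1-1 and at 10.3, 6.89 and 7.68 RPM in ntp4-1 (3.94, adjusted p = 0.0234). Col-0 was higher still at 34.96 ± 10.2 RPM. The bin at chr5:15949601-15949700, in a transposon in the promoter of AT5G39850, was at 0 in all heso1-1 libraries and at 8.56, 5.47 and 11.0 RPM in ntp4-1 (at least 63.7-fold higher, with the floor of 3 reads over the group, adjusted p = 0.0217), and Col-0 had 23.5 ± 0.322 RPM. The bin between genes at chr2:11010901-11011000 was at 0.104 ± 0.112 RPM in heso1-1, 9.68 ± 5.68 RPM in ntp4-1 and 18.5 ± 4.09 RPM in Col-0 (3.95, adjusted p = 0.0329).

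In the other rises ntp4-1 stood off from Col-0 as well. The promoter bin of AT3G62529, an annotated pseudogene of a PPR protein (chr3:23130801-23130900), was at 0, 0 and 0.362 RPM in heso1-1 and at 6.19, 22.7 and 23.9 RPM in ntp4-1, with 0.456 ± 0.320 RPM in Col-0 (4.70, adjusted p = 0.0217, and 0.00799 after TMM scaling). The promoter bin of AT1G29550 (chr1:10330001-10330100) was at 0 in heso1-1 and at 5.00, 14.0 and 15.9 RPM in ntp4-1 (at least 88.9-fold higher, adjusted p = 0.0211). The transposon AT1TE05700 (chr1:1739101-1739200) was at 0 in heso1-1 and at 10.8, 8.91 and 11.3 RPM in ntp4-1 (at least 79.1-fold higher, adjusted p = 0.0152). Col-0 was at 0.574 ± 0.335 and 0.067 ± 0.116 RPM in these 2 bins, close to heso1-1. The bin between genes at chr1:17247401-17247500 was at 0.121 ± 0.209 RPM in heso1-1, at 4.48, 30.6 and 36.9 RPM in ntp4-1 and at 2.36 ± 1.27 RPM in Col-0 (4.90, adjusted p = 0.0329).

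Of the 9 falls Col-0 lay with heso1-1 in 8, miR166a-3p among them. The largest was in a transposon in the promoter of DMS11 (AT1G19100, a gene of RNA-directed DNA methylation; chr1:6594001-6594100), at 25.3, 28.9 and 32.6 RPM in heso1-1 and at 0.790, 0 and 0 RPM in ntp4-1 (-5.42, SE 0.64, adjusted p = 0.0152). Col-0 had 39.6 ± 3.47 RPM. Its sequence on the plus strand of TAIR10.1 is shown as the bin with the largest loss.
DMS11 promoter bin, chr1:6594001-6594100: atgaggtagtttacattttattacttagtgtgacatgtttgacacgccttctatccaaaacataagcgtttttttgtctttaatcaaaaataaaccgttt

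The promoter bin of AT2G16340 (chr2:7072401-7072500) was at 8.58, 19.0 and 11.2 RPM in heso1-1 and at 0 in ntp4-1 (at least 77.7-fold lower, adjusted p = 0.0152), with 13.0 ± 4.95 RPM in Col-0. The bin between genes at chr5:17498401-17498500 was at 39.8 ± 9.07 and 1.34 ± 1.49 RPM (-4.73, adjusted p = 0.0271), and that in the promoter of AT4G18380 (chr4:10156901-10157000) at 14.4 ± 0.547 and 0.247 ± 0.320 RPM (-4.40, adjusted p = 0.0198). Losses of 4.09 to 4.28 on the log2 scale were those in the promoters of AT4G10810, AT5G44600 and the neighbours AT5G20090 and AT5G20100, which share a bin. The exception to the Col-0 pattern was the promoter bin of AT4G10620 (chr4:6563901-6564000), at 10.6, 13.8 and 20.6 RPM in heso1-1, 0.395, 0.810 and 0.366 RPM in ntp4-1 and 1.04 ± 0.378 RPM in Col-0 (-3.90, adjusted p = 0.0329), where heso1-1 alone was high.

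**Figure D3:**
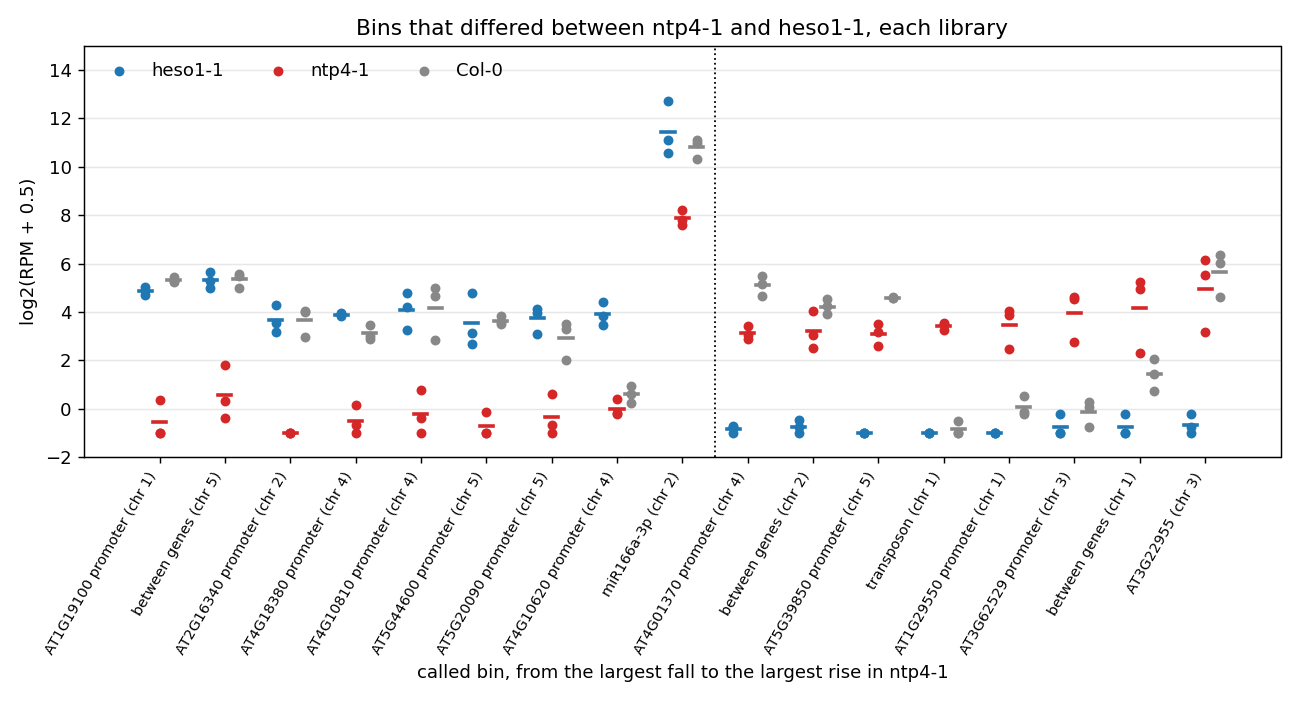
Each point is 1 library and each bar the mean of 3, on a log2(RPM + 0.5) axis, for the 17 bins that passed limma, from the largest fall (the DMS11 promoter, AT1G19100) to the largest rise (AT3G22955). The heso1-1 and ntp4-1 points do not overlap in any bin; Col-0 lies with heso1-1 in 8 of 9 falls and with ntp4-1 in 4 of 8 rises.

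The further bins called with the block but not without it were read by class, and those named here were chosen after their values were seen. In gene bodies outside transposons 13 were higher and 51 lower, which is 1.58% of that class, beside 0.834% of all bins. Over HAK5 (AT4G13420, a high-affinity potassium transporter) 2 bins, at chr4:7800601-7800700 and chr4:7800801-7800900, were lower, the first of them within a transposon: the second was at 13.1, 34.7 and 46.7 RPM in heso1-1 and at 0.395, 3.44 and 0.548 RPM in ntp4-1 (-4.19, adjusted p = 0.0616, and 6.13e-05 with the block). Col-0 had 26.3 ± 10.9 RPM there, and after TMM scaling the limma adjusted p of this second bin was 0.177. AT1G63080 was at 311 ± 98.8 and 32.6 ± 31.96 RPM (-4.66, adjusted p = 0.431, 0.00186 with the block and 0.862 after TMM scaling). The tRNA locus AT1G55625, which overlaps the promoter of CLC-F, was at 0.0596 ± 0.103 and 9.69 ± 6.08 RPM (3.94, adjusted p = 0.0513, 2.56e-05 with the block and 0.0164 after TMM scaling).

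By feature class the shares of the organelles did not overlap between the mutants. The chloroplast held 7.64%, 4.29% and 7.32% of the listed RPM in the heso1-1 libraries and 13.5%, 13.4% and 12.1% in ntp4-1, with 5.96% to 6.47% in Col-0. As a share of listed RPM every ntp4-1 library was thus above every other one, by 6.59 percentage points on average over heso1-1 (two-sided exact permutation p = 0.1, the smallest possible, adjusted 0.5 over 10 classes). In RPM itself the groups overlapped: the chloroplast held 36120, 25493 and 43247 RPM in the heso1-1 libraries and 38792, 65143 and 65588 RPM in ntp4-1 (exact permutation p = 0.2). There ntp4-1 replicate 1, with 28.7% of its reads in listed bins, lay below heso1-1 replicate 3 and below the 2 higher Col-0 libraries. The mitochondrion went from 1.11% ± 0.403 to 1.87% ± 0.352 of the listed RPM (exact permutation p = 0.1, adjusted 0.5). In RPM itself the mitochondrion was not compared. Bins with miRNA strands held 7.22% ± 0.932 and 5.31% ± 1.69 (exact permutation p = 0.2, adjusted 0.5), and the shares of the remaining 7 classes overlapped.

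**Figure D4:**
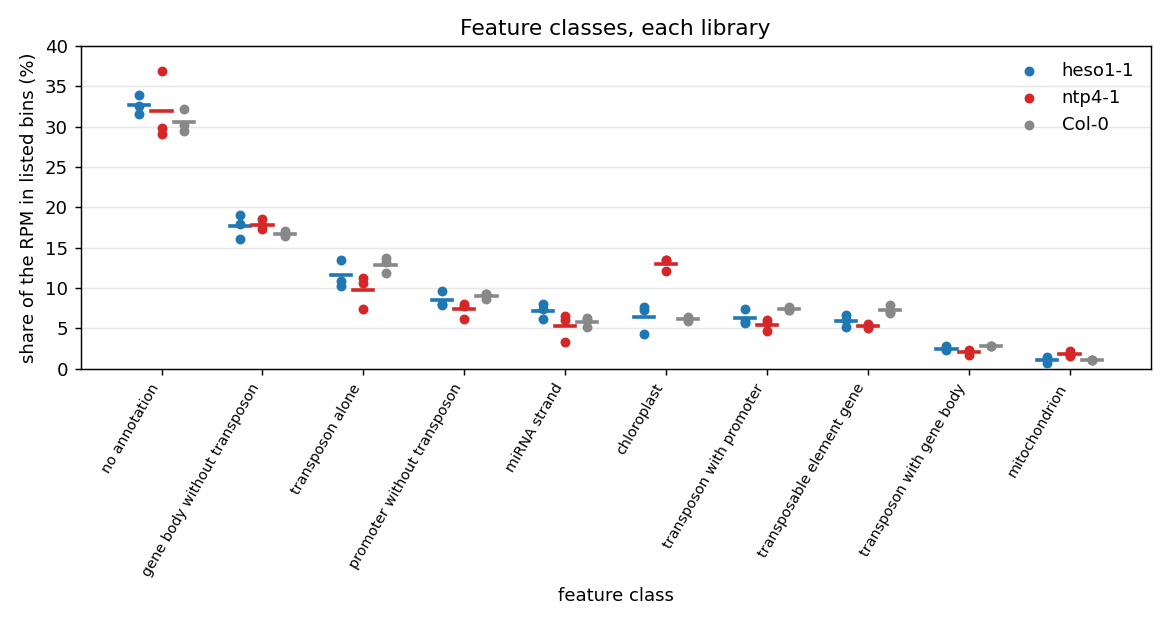
Each point is 1 library and each bar the mean of 3, on a linear axis of percent of the RPM in listed bins, for 10 feature classes. The chloroplast share is 12.1% to 13.5% in ntp4-1 and 4.29% to 7.64% in heso1-1; only this class and the mitochondrion separate the mutants without overlap.

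Most of the difference in share lay in the 4 most abundant chloroplast bins, which form 2 pairs of nearly equal values. They held 3.62% ± 1.64 of the listed RPM in heso1-1 and 8.91% ± 2.04 in ntp4-1 (exact permutation p = 0.1), a difference of 5.28 percentage points. The other chloroplast bins held 2.79% ± 1.41 and 4.10% ± 1.60, which overlapped (exact permutation p = 0.2). Of 665 chloroplast bins 78 (11.7%) had all ntp4-1 libraries higher and 10 all lower, beside backgrounds of 0.659% and 11.9%, and the median log2 difference was 0.48 (0.97 after TMM scaling). limma called 0 of them, with 51 higher and 2 lower at an unadjusted p under 0.05, while edgeR called 0 and DESeq2 2 in each direction. The 2 most abundant bins were at ATCG00950 and in the promoter of ATCG01180 and had almost equal values: the first was at 8151, 4377 and 6814 RPM in heso1-1 and at 8377, 11860 and 12315 RPM in ntp4-1 (0.78, SE 0.31, adjusted p = 0.849). The promoter bin of ATCG01250 was at 4839, 2943 and 1788 RPM against 7780, 7800 and 7788 RPM (1.40, adjusted p = 0.444, 0.00996 with the block and 0.933 after TMM scaling).

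Not all of the chloroplast moved one way. A bin in ATCG01170 was at 1162, 1127 and 2649 RPM in heso1-1 and at 414, 163.5 and 182 RPM in ntp4-1 (-2.71, adjusted p = 0.113, and 0.00116 with the block), and one in ATCG00960 had nearly the same values. After TMM scaling both bins had a limma adjusted p of 0.9999. These were chosen after their values were seen. Col-0 was at 1497 ± 558 RPM in the bin of ATCG01170, beside heso1-1. Bins carry no strand, and sequences repeated in the chloroplast genome cannot be told apart where reads match both copies. Chloroplast bins with nearly equal values may therefore not be independent, and the counts of chloroplast bins include both bins of such a pair. Whether they are copies of 1 sequence was not tested.

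The nuclear classes had medians of -0.48 to -0.58 as deposited and of -0.07 to 0.01 after TMM scaling, within a narrow range. Transposons outside genes and promoters (9146 bins) had a median of -0.53 with 1 bin called, transposable element genes (4884) had -0.50 with 1, and gene bodies without a transposon (4060) had -0.53 with 0, where 37 were higher and 184 lower at an unadjusted p under 0.05, edgeR called 0 and DESeq2 9 higher and 21 lower. Promoters without a transposon (4102 bins) held 8 of the 17 called bins, 3 higher and 5 lower, which is 0.195% of that class, beside 0.0466% of all bins.

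**Figure D5:**
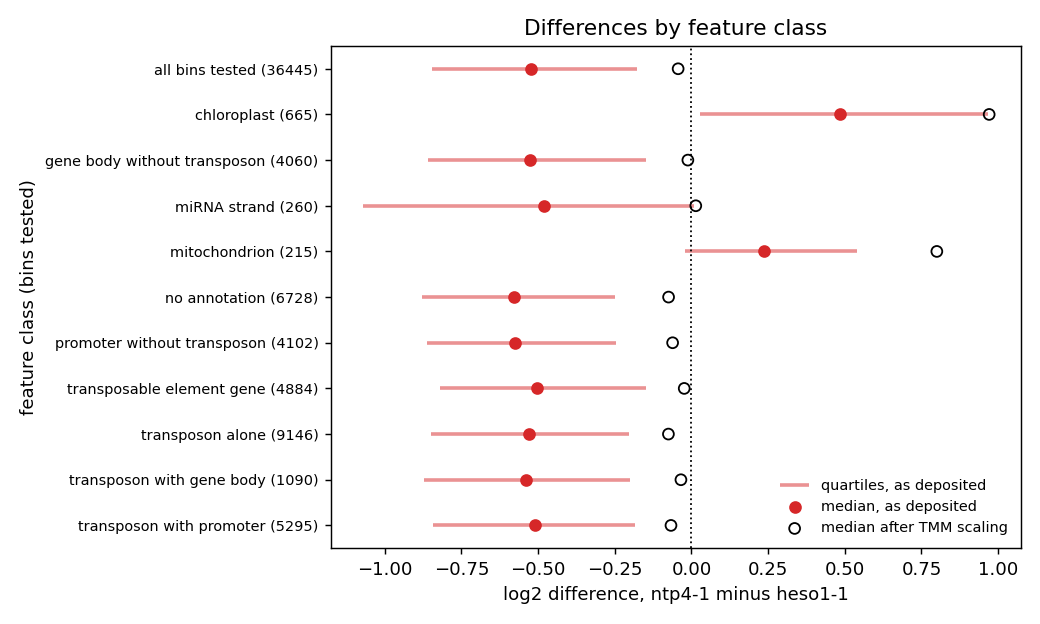
For each feature class the filled point is the median log2 difference (ntp4-1 minus heso1-1) as deposited, the line its quartiles and the open circle the median after TMM scaling, with the number of bins tested in brackets. Chloroplast (0.48) and mitochondrion (0.24) lie above 0 under both scales, while nuclear medians move from near -0.52 to near 0.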

How the data were processed

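The authors deposited 1 table of 152484 bins of 100 bp with RPM in 12 library columns, matched to the labels by name; 0 columns were left unmatched and 0 were identical. No source used here names the aligner or the build; 99.5% of gene listings overlapped the gene of that name in TAIR10.1. All values in the deposited columns were whole multiples of 1 read (100% within 1e-06), and counts recovered in this way were used in edgeR (4.0.16) and DESeq2 (1.42.0), where 48 bins had no adjusted p.

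Differences are ntp4-1 minus heso1-1 from limma (3.58.1, R 4.3.3, trend) on log2(RPM + 0.5), computed from the deposited RPM, two-sided, with Benjamini-Hochberg adjustment over 36445 bins and a threshold of 0.05. This scale understates the change of low bins. Ratios of strands were fitted likewise over 45 miRNAs, but without the trend and with the adjustment over those 45 ratios. Shares and sums were compared with exact permutation tests, which cannot go below 0.1. The code was tested on simulated data. Replicates are biological per the labels, and p-values rest on their spread.

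Same-numbered libraries deviated together (correlations of deviations across bins 0.57, 0.23 and 0.18). The numbers were therefore taken as pairs, a choice made from these same data. Crosswise, replicates 2 and 3 gave 0.27 and 0.28, above their same-numbered values. The correlations thus set replicate 1 apart but do not pair replicates 2 and 3 by number. Values with the replicate block are an alternative to the main fit and stand beside results they change. No label says what a number shares.

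Each bin was put in 1 of 10 classes by its annotation, with transposable element genes split off after the table was seen. Bins named in the text were the called ones, the most abundant strands and the largest differences without overlap, and list members. Members and lists were chosen with earlier results of these data known. Intervals for single libraries are not given, since reads without molecular identifiers are not independent. Alternatives were other scalings, pseudocounts, filters, libraries left out and count tests.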

Additional observations from a re-analysis of the deposited data

How the results depend on the processing

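Calls moved with nearly every choice, given here as bins higher in ntp4-1 (8 in the report) and as the percent of tested bins lower in it (0.0247%). They were 16 and 0.00823% with median centring, 12 and 0.00549% with TMM scaling, 0 and 0% with a pseudocount of 0.1 (1265 bins at an unadjusted p under 0.05), 10 and 0.0466% with a pseudocount of 1, 0 and 0% at a mean of at least 5 RPM (406 unadjusted) and 41 and 0.0775% with no filter. All 12 libraries in the fit gave 15 and 0.14%. On recovered reads edgeR gave 0 and 0% (1224 unadjusted), with TMM scaling again 0 and 0% (1570 unadjusted), and DESeq2 gave 32 and 0.266%. Leaving out 1 library gave 0 to 123 higher and 0% to 0.431% lower. The replicate block gave 51 and 0.694%, and with TMM scaling 36 and 0.0796%; leaving out ntp4-1 replicate 1 with TMM scaling gave 33 and 0.0301% (these combinations were chosen after seeing the data). Called miRNA bins numbered 17 with the replicate block, 11 with no filter, 3 with all 12 libraries, 2 without ntp4-1 replicate 1 after TMM scaling, 5 by DESeq2, 0 to 11 with 1 library left out, and 0 with TMM, median centring, a pseudocount of 0.1, at 5 RPM and by edgeR with or without TMM scaling. Called strand ratios numbered 5 with the replicate block, 4 with all 12 libraries, 0 with a pseudocount of 0.1 and 0 to 2 with 1 library left out. The causes were not tested. Differences in 2 class shares changed sign, in classes whose shares overlapped. For gene bodies without a transposon the difference was -0.208 percentage points without miRNA bins and -0.619 to 0.825 with 1 library left out (-0.158 without ntp4-1 replicate 1). For unannotated bins it was 2.18 within nuclear bins and -3.22 to 0.667 with 1 library left out (0.305 without ntp4-1 replicate 3). Of the alternative values of the called bins 183 stayed on their side of the threshold, 137 did not, and none changed sign. Depth was lowest in heso1-1 replicate 3, where 1 read is worth 0.362 RPM.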

Other observations

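The most abundant bin of the 6 libraries carried no annotation as deposited. At chr3:14202001-14202100 it was at 19087, 17328 and 22023 RPM in heso1-1 and at 13940, 12060 and 19590 RPM in ntp4-1, with 10324 ± 1676 RPM in Col-0 (log2 difference -0.38, limma adjusted p = 0.849). The 2 mutants overlapped, and all heso1-1 and ntp4-1 libraries were above all Col-0 libraries, which was not tested. A bin of the rRNA gene AT2G01020 (chr2:5701-5800) was level between the mutants, at 3944 ± 1217 and 3973 ± 529 RPM (0.05, adjusted p = 0.964).

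Some bins lay beside a called bin in a transposon. The bin beside the called one in AT1TE05700 was at 0 in heso1-1 and at 2.50, 6.69 and 8.59 RPM in ntp4-1 (3.54, limma adjusted p = 0.0619, 0.000182 when blocked by replicate and 0.0233 after TMM scaling). The bin beside the called one in the AT2G16340 promoter was at 4.46, 7.86 and 7.97 RPM in heso1-1 and at 0.203 ± 0.351 RPM in ntp4-1 (-3.44, adjusted p = 0.0616, 0.000102 with the block and 0.115 after TMM scaling). Away from any called bin, in the transposon in the promoter of AT1G49860, heso1-1 was at 12.5, 8.67 and 5.07 RPM, ntp4-1 at 0.311 ± 0.276 RPM and Col-0 at 0.160 ± 0.152 RPM (-3.49, adjusted p = 0.0601). These were chosen after their values were seen.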
